A study of Rattus norvegicus with 6 samples.

Results

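RSC96 cells kept with the non-piezoelectric material PCL@PDA in a hypoxia model were compared with Control cells across all expressed genes. RSC96 is an immortalised rat Schwann cell line of wild type genotype. The comparison took 4 of the 6 libraries of the series, assigned by their titles. They were the PCL@PDA libraries of replicates 1 and 3 and the Control libraries of replicates 1 and 3. The labels place replicate 1 of each group in batch 1 and replicate 3 in batch 3. In the model, cells were held for 24 h in medium conditioned by macrophages, and total RNA was sequenced. The remaining 2 libraries came from cells given the same model with a piezoelectric material, PVDF@PDA. They entered the fit as a group of their own and served for scale. The labels do not say whether Control cells received conditioned medium, how the model lowered oxygen, or whether a material was present in Control. Every difference below is therefore a difference between whole conditions, and material, medium and hypoxia model cannot be told apart. The description given with the PCL@PDA libraries calls the material non-piezoelectric but gives it the other name, so the titles and treatment fields were followed. The line stands for 1 immortalised culture, and separate cultures for the replicates are not stated. The p-values therefore measure only how far these libraries scatter, and that scatter may be technical.

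Schwann cells wrap and support the axons of peripheral nerves, and after injury they leave the myelinating state, divide and secrete growth factors and chemokines. Cells short of oxygen stabilise the HIF transcription factors, which switch on genes of glucose uptake, glycolysis and oxygen-saving metabolism. Dividing cells load the MCM helicase on DNA in G1, replicate in S phase under E2F control, and build up cyclin B and spindle proteins in G2 and mitosis. NF-kB and the interferon-activated factors drive chemokine genes and antiviral genes in inflamed tissue.

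The promoters of 4 genes are printed because each belongs to a group that differed between the conditions and holds the short motif usually linked to it. The sequences are from RefSeq on the rat assembly GRCr8, from 250 bases before to 50 after the annotated start, and read 5′ to 3′ on the strand of the gene. GRCr8 is newer than mRatBN7.2, the assembly named in the submitters' processing notes. Capitals mark the matches of the motif named for each gene after the sequences.
Bnip3, chr1:203154913-203155212, minus strand: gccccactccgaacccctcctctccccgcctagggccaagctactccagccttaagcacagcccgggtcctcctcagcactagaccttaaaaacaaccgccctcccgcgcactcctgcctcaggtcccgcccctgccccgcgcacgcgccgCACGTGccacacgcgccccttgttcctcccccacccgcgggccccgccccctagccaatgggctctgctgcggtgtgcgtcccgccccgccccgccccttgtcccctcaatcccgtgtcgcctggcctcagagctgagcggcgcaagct
Mcm5, chr19:13488563-13488862, plus strand: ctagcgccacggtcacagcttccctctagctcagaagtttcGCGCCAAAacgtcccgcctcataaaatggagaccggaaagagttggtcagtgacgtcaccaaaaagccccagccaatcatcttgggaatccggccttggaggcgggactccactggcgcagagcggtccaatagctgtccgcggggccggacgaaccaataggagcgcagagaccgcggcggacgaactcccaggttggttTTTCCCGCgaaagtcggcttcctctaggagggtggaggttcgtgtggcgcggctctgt
Cxcl6, chr14:17596368-17596667, minus strand: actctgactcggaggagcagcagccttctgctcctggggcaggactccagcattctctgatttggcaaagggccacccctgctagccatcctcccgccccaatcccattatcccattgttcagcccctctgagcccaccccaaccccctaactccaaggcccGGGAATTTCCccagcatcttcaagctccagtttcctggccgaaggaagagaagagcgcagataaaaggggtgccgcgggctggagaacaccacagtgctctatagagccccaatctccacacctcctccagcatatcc
Gbp5, chr2:233910749-233911048, plus strand: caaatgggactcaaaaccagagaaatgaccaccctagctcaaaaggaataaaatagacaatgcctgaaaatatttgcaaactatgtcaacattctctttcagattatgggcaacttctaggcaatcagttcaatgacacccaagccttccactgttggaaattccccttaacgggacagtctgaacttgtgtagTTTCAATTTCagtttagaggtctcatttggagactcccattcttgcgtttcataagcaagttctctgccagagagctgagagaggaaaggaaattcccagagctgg
The capitals of Bnip3, a mitophagy receptor, are the hypoxia response core ACGTG, which matches there on both strands of 1 palindrome. Those of Mcm5, a subunit of the replicative helicase, are the E2F forms TTTGGCGC, on the opposite strand, and TTTCCCGC. Cxcl6, a neutrophil chemokine, carries an NF-kB site, and Gbp5, an interferon-induced GTPase, the core of an interferon-stimulated response element (ISRE) on the opposite strand. The Gbp5 window also holds matches of the NF-kB site on the opposite strand, printed in lower case.

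Each motif was searched on both strands of 27457 rat promoters of that length. ACGTG was in 19.7% of all promoters and 25.2% of the 10605 promoters of tested genes, and in 16 of the 24 hypoxia-list members with a promoter. The ISRE core was in 3.77% and 3%, and in 19 of 27 interferon-list members. TTTGGCGC was in 0.521% and 0.858% and in 8 of 39 replication genes, while TTTCCCGC was in 1.03% and 2.1% and in 5 of 39. The NF-kB site was in 0.371% and 0.424%, in 5 of 17 members of the NF-kB list and in 3 of 15 chemokines and cytokines. Of members that passed the test, 9 of 15 hypoxia genes, 9 of 14 interferon genes, 6 of 25 replication genes (TTTGGCGC), 5 of 9 NF-kB genes and 2 of 9 cytokines held the motif. A match describes these letters in this window and is not a measured binding site.

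Counts per library were 34460767 and 33602694 for PCL@PDA replicates 1 and 3 and 34055444 and 35389307 for Control. Of 16849 genes in the table, 13018 had enough counts to be tested, and a total of 3 counts in a library corresponded to 0.0848 to 0.0893 CPM. RSC96 kept part of the Schwann cell programme. Of 10 Schwann cell markers 4, Pmp22, Erbb3 and Egr2 among them, were above 1 CPM in each of the 4 libraries, and the other 6, S100b, Cdh19, Ngfr, Gfap and Mbp among them, were below 1 CPM in all 6. The summed CPM of that list, without TMM scaling, was 78.3 and 78.1 with PCL@PDA and 70.9 and 73.7 in Control. Macrophage markers, of interest because the medium came from macrophages, summed to 11.5 and 9.76 CPM with PCL@PDA and 9.81 and 10.2 in Control, also without TMM scaling. Of the 12 in the table, 9 were below 1 CPM in all 6 libraries, the leukocyte antigen Ptprc among them, and 0 of 7 tested passed. Fibroblast markers summed to 255 and 266 CPM with PCL@PDA and 219 and 233 in Control on the same scale, with 3 of 7 tested higher and 1 lower.

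Levels are CPM, counts relative to the library total after TMM scaling, given for replicates 1 and 3 in that order, and means carry their SD with n = 2. A difference is log2 of PCL@PDA over Control with its standard error (SE), tested by edgeR's quasi-likelihood test with Benjamini-Hochberg adjustment over all 13018 genes. With the replicate block, the batch is an added term of the fit. A gene passed, and is said to have risen or fallen, at an adjusted p below 0.05. By that test 2616 genes passed, or 20.1%, of which 1142 rose (8.77%) and 1474 fell (11.3%). The median difference of all genes tested was 0.01. In 2612 of the 2616 the PCL@PDA libraries lay on 1 side of both Control libraries. Among all 13018 genes tested 28.3% lay above and 27.8% below both Control libraries in this way. The exceptions, chosen after their values were seen, were Chpf, Cmtm7, Gnat2 and Lcorl. Most genes named below were picked by size or by p from these same libraries, which favours groups that do not overlap. Scaling by library totals alone gave 2552 genes, with 1482 higher and 1070 lower, so the share that rose was 58.1% against 43.7%. Without Control replicate 1 the count was 1346.

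Among the largest rises were a vasoactive peptide, enzymes of heme and fat breakdown, DNA polymerase and repair genes and a heat shock protein. Adm encodes adrenomedullin, a vasodilator peptide (gene ID 25026), and stood at 17.4 and 23.9 CPM with PCL@PDA and 6.72 and 10.7 in Control (log2 1.24, SE 0.17, adjusted p = 8.89e-06). Apln, the apelin peptide gene (58812), stood at 37 and 39.8 against 18.4 and 18.5 (log2 1.06, SE 0.10, adjusted p = 3.44e-12). Both peptides were higher in each PCL@PDA library than in either Control library, which picking the largest passing rises favours. Adm was lower in replicate 1 than in replicate 3 of both groups. Hmox1, the heme oxygenase (24451), was at 188 and 183 against 78 and 90.3 CPM (log2 1.14, SE 0.09, adjusted p = 1.8e-07). Its size held without PCL@PDA replicate 1 (1.12) or replicate 3 (1.15), while its adjusted p was then 0.067 and 0.0936. Hspa8, the constitutive HSP70 chaperone (24468), was at 1319 and 1367 against 744 and 725 CPM (log2 0.87, SE 0.05, adjusted p = 1.98e-20) and was the most abundant of the 12 genes with the largest rises. Cpt1a, which admits fatty acids to mitochondria (25757), was at 47.4 and 45.2 against 25 and 25 (log2 0.89, SE 0.09, adjusted p = 5.26e-11).

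Other members of those 12 work in DNA replication and repair. The uracil glycosylase Ung was at 25 and 26.5 against 13 and 13.2 CPM (log2 0.97, adjusted p = 4.24e-09) and the polymerase subunit Pold1 at 30 and 40.9 against 17.4 and 21.7 (log2 0.86, adjusted p = 4.03e-06). The PCL@PDA libraries of both genes lay above both Control libraries, which picking the largest passing rises favours. Pold1 was higher in replicate 3 than in replicate 1 of both groups. Also among the 12 were the receptor of lymphatic growth factors Flt4 (log2 0.90) and the small GTPase Rhob (0.87). So were the interferon-stimulated exonuclease Isg20 (0.87) and the chloride channel gene Ttyh3 (0.85).

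Among the largest falls were chemokines, interferon-induced GTPases and a fatty acid desaturase. Cxcl6 (60665) was at 21.9 and 23.7 CPM with PCL@PDA and 63.6 and 65.2 in Control (log2 -1.50, SE 0.09, adjusted p = 3.72e-19). Gbp5 (362050) was at 6.54 and 5.05 against 14.2 and 16.3 (log2 -1.39, SE 0.17, adjusted p = 8.49e-09), and its relative Gbp6 at 9 and 9.02 against 20.1 and 20.7 (log2 -1.18, adjusted p = 5.58e-09). Scd2, which makes monounsaturated fatty acids (83792), was at 249 and 261 against 494 and 521 (log2 -0.99, SE 0.05, adjusted p = 5.56e-21). In these 4 genes the pair of each group lay close together and far from the other pair, which picking the largest passing falls favours. Cxcl and Gbp genes are families of similar sequence, and how the counting split shared reads is not given. Among the 12 were also the interferon-induced kinase Cmpk2 (log2 -0.97), the chemokine Cxcl1 (-0.94), the cytokine receptor Il9r (-1.19), the Polycomb partner Phf19 (-1.01), the centromere protein Cenpl (-0.93) and Flacc1 (-1.30). Prkar1b (-1.18) and Kif27 (-0.98) overlap another counted gene, and the counting strand is not given.

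**Figure D1:**
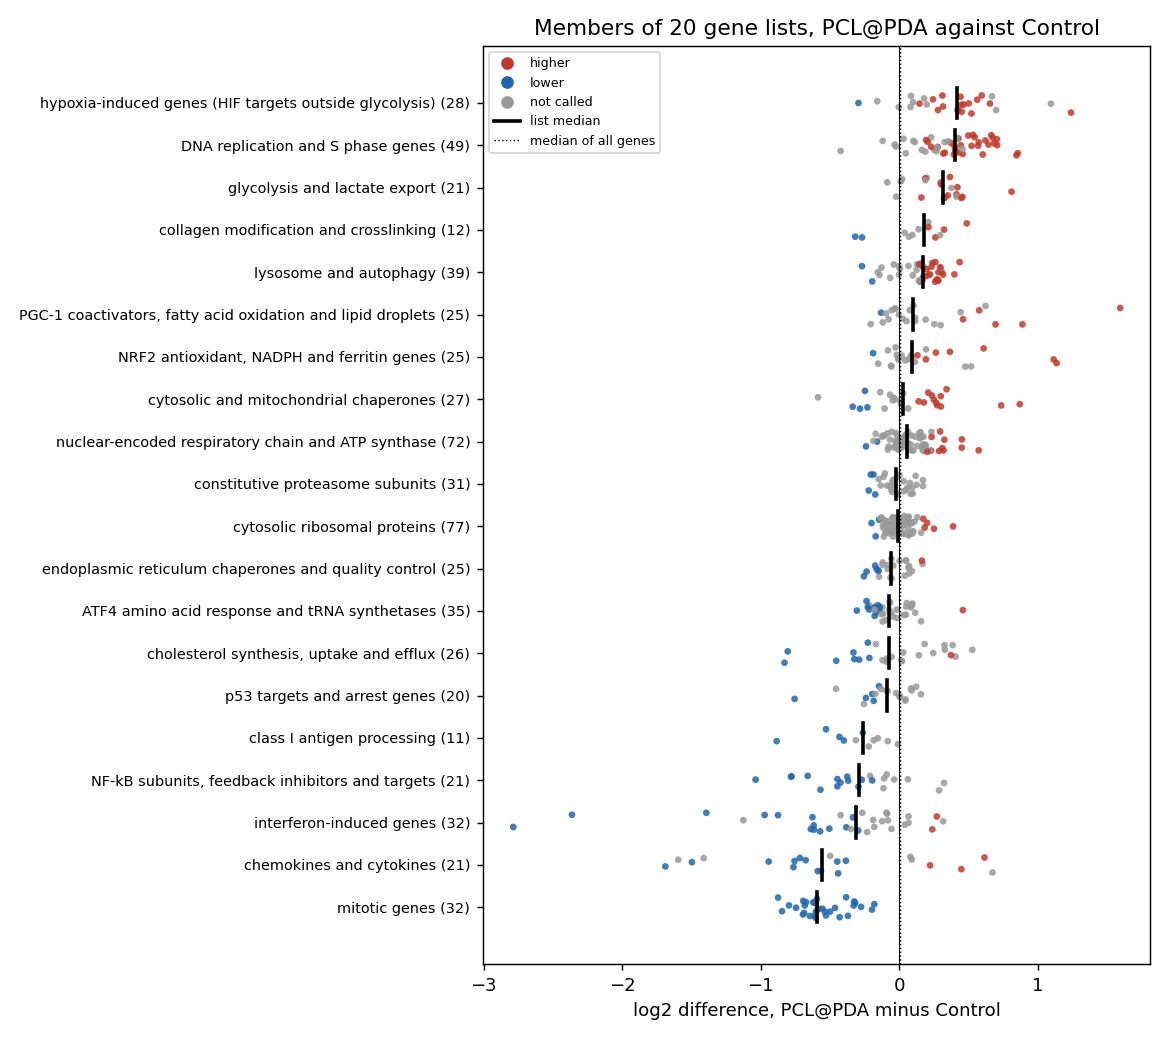
Log2 difference between PCL@PDA and Control (x axis) of each tested member of 20 gene lists (rows, number tested in brackets); red points rose, blue points fell and grey points did not pass, black bars mark list medians and the dotted line the median of all genes. Mitotic genes lie to the left as a block (median -0.59), and hypoxia-induced and replication genes mostly to the right (medians 0.42 and 0.40).

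Most of the DNA replication genes rose, and all 32 mitotic genes tested fell. Of 49 tested replication and S phase genes 31 rose and 0 fell, with a median difference of 0.40, and of 32 tested mitotic genes 0 rose and 32 fell, with a median of -0.59. Among all genes tested 8.77% rose and 11.3% fell. The subunits of the MCM helicase, which unwinds DNA at the fork, rose together. Mcm4 (29728) was at 279 and 271 CPM against 181 and 188 (log2 0.57, SE 0.05, adjusted p = 4.76e-12), Mcm3 (316273) at 82.3 and 88.7 against 52.1 and 52.6 (log2 0.71, SE 0.07, adjusted p = 9.53e-11) and Mcm7 (288532) at 107 and 118 against 72.8 and 67.6 (log2 0.68, SE 0.07, adjusted p = 5.74e-11). The Control libraries of Mcm3 were nearly equal, and the lowest PCL@PDA library of each of these genes was above the highest Control library. The pick by smallest p favours such a gap. Mcm2, Mcm5 and Mcm6 rose by log2 0.65, 0.67 and 0.57.

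The loading factors Cdt1 (log2 0.71) and Cdc6 (0.69), the transcription factor E2f1 (0.62), the cyclin Ccne2 (0.53), the DNA ligase Lig1 (0.50) and the clamp Pcna (0.32) also rose. Genes that supply deoxynucleotides did not move as a block: thymidylate synthase Tyms (0.21) and thymidine kinase Tk1 (0.45) rose, with an adjusted p of 0.227 and 0.0597 without Control replicate 1, and 0.0689 for Tk1 without PCL@PDA replicate 3. The ribonucleotide reductase subunits Rrm1 (178 CPM in Control, log2 0.10, adjusted p = 0.218) and Rrm2 (109.7, log2 -0.03, adjusted p = 0.78) did not pass. The homologous recombination genes Brca1 (0.19) and Brca2 (0.05) did not pass.

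Mitotic genes fell by values from -0.87 for the centromere protein Cenpf to -0.18 for the kinesin Kif20a, whose adjusted p was 0.0972 and 0.206 without Control replicate 1 or 3. Ccnb1, cyclin B1, which starts mitosis (25203), was at 188 and 182 CPM against 292 and 303 (log2 -0.69, SE 0.06, adjusted p = 2.51e-14). Prc1, which bundles spindle microtubules (308761), was at 238 and 214 against 369.9 and 356 (log2 -0.68, SE 0.06, adjusted p = 2.85e-14), and Top2a, the topoisomerase that untangles chromosomes (360243), at 388 and 352 against 561 and 563 (log2 -0.60, SE 0.05, adjusted p = 3.35e-13). Every library of PCL@PDA was below both Control libraries in these 3 genes, which the pick by smallest p favours. Replicate 3 was the lower of the PCL@PDA pair. The kinases Aurka (log2 -0.74), Aurkb (-0.69), Bub1 (-0.62) and Plk1 (-0.55), the motor Kif11 (-0.60) and the transcription factor Foxm1 (-0.43, adjusted p = 0.0622 without Control replicate 3) fell as well. Cdk1, the mitotic kinase itself, fell by 0.33 and the proliferation antigen Mki67 by 0.38. In bulk RNA fewer cells in a phase and less RNA per cell cannot be told apart. The fall of mitotic genes was smaller in batch 1 (median -0.52) than in batch 3 (-0.62), and the rise of replication genes was 0.39 and 0.36. With 1 library left out, 25 to 29 replication genes passed as higher and 29 to 32 mitotic genes as lower. Without PCL@PDA replicate 1, 1 replication gene also passed as lower, and so it did with the replicate block. Of 20 p53 targets and arrest genes 0 rose and 5 fell, against 8.77% and 11.3% of all genes tested. The largest fall was that of the death receptor Fas (log2 -0.75, adjusted p = 4.26e-06), and 1 passed as lower without Control replicate 1. Without PCL@PDA replicate 1, 3 rose and 7 fell, without Control replicate 3, 3 fell, and with library totals alone 2 rose and 3 fell. With the replicate block 1 of the list rose.

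**Figure D2:**
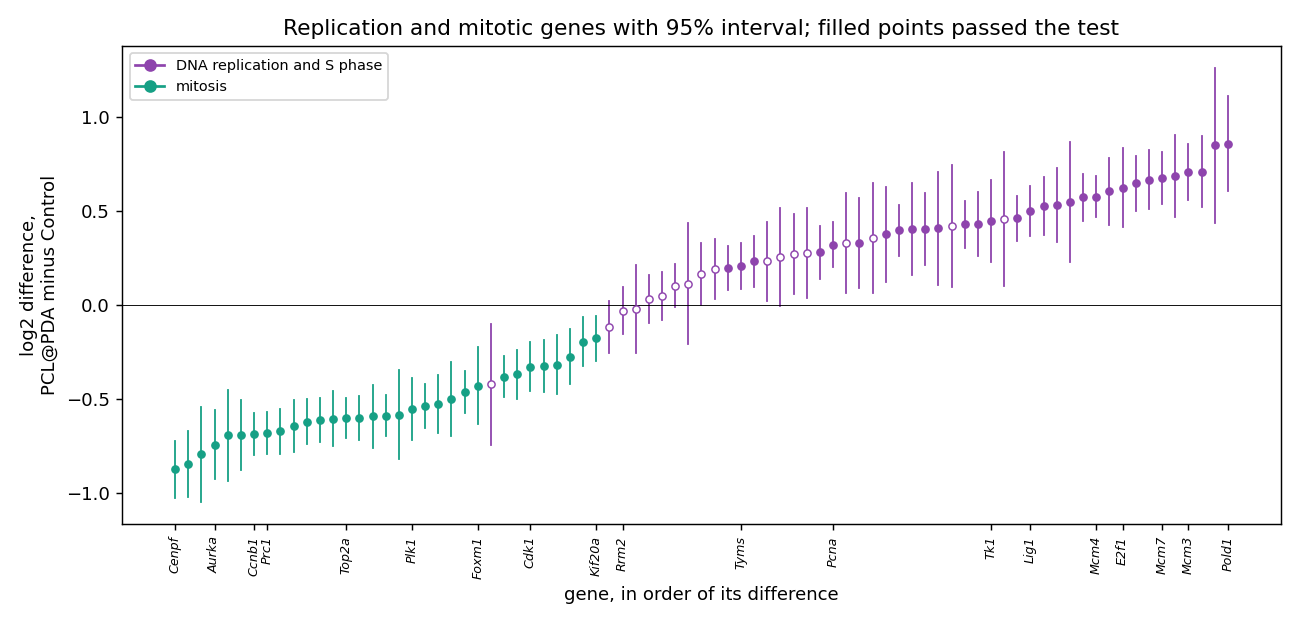
Log2 difference between PCL@PDA and Control (y axis) of 49 replication genes (purple) and 32 mitotic genes (green), in order of size (x axis, some genes named), with 95% intervals; filled points passed edgeR's test. All 32 mitotic genes lie below 0, and Pold1 has the highest value of the replication genes (0.86).

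Genes induced by hypoxia and the enzymes of glycolysis were mostly higher with PCL@PDA. Of 28 tested hypoxia-induced genes outside glycolysis 17 rose and 1 fell, with a median of 0.42. Bnip3, which marks mitochondria for removal (84480), was at 246 and 229 CPM against 156 and 166 (log2 0.56, SE 0.06, adjusted p = 3.54e-11). The mitochondrial protein gene Higd1a (140937), which overlaps Ccdc13, was at 86.7 and 82.5 against 50.5 and 56.8 (log2 0.66, SE 0.07, adjusted p = 3.24e-10). The glucose transporter Slc2a1 (24778) was at 293 and 321 against 214 and 235 (log2 0.45, SE 0.06, adjusted p = 1.23e-08) and Slc2a3 (25551) at 719.5 and 727 against 519 and 541 (log2 0.45, SE 0.05, adjusted p = 5.48e-10). In these 4 genes the groups did not overlap, which the pick by smallest p favours. Control replicate 3 was the higher of its pair in each.

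The oxygen sensor Egln1, which marks HIF for degradation, rose by log2 0.60 (adjusted p = 5.76e-08), and the collagen hydroxylases P4ha1, P4ha2, Plod1 and Plod2 by 0.28, 0.50, 0.42 and 0.52. P4ha2 had an adjusted p of 0.0663 without Control replicate 1. Vegfa, the angiogenic growth factor (83785), was high in both groups and differed little, at 482 ± 0.808 against 435 ± 3.81 CPM (log2 0.15, SE 0.05, adjusted p = 0.0294). Its adjusted p was 0.232 without Control replicate 1, 0.135 without Control replicate 3, and 0.0635 and 0.0638 without PVDF@PDA replicates 1 and 3. It was 0.0625 with the 4 libraries alone. Ca9, a carbonic anhydrase and common hypoxia marker (313495), was at 69 and 78.7 CPM against 36.4 and 54.4 and did not pass (log2 0.70, SE 0.23, adjusted p = 0.143). The Control libraries of Ca9 differed more than those of PCL@PDA, and its adjusted p was 0.000374 without Control replicate 1 and 2.38e-17 without Control replicate 3. It was 4.42e-07 in the non-robust fit, 0.0325 in DESeq2 and 2.81e-20 with the replicate block. The one fall was that of the secreted stanniocalcin Stc2, at 31.1 and 32 against 38.8 and 38.5 CPM (log2 -0.29, SE 0.09, adjusted p = 0.0187), with an adjusted p of 0.118 and 0.0821 without Control replicate 1 or 3. The HIF targets Pdk1 (log2 0.08), Bnip3l (0.09) and Bhlhe40 (0.10) did not pass.

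Of 21 genes of glycolysis and lactate export 13 rose and 0 fell, with a median of 0.32. Ldha, which makes lactate (24533), was at 1239 and 1241 CPM against 876 and 939 (log2 0.45, SE 0.05, adjusted p = 2.74e-10). Tpi1 (24849), which overlaps Spsb2, was at 792 and 833 against 579.9 and 633 (log2 0.42, SE 0.05, adjusted p = 5.54e-09) and Gpi (292804) at 152 and 169 against 112 and 129 (log2 0.41, SE 0.06, adjusted p = 2.65e-06). The rises ran from the hexokinase Hk2 (log2 0.37) at the entry of the pathway to the lactate exporter Slc16a3 at its end, which was at 26.1 and 34.7 against 14 and 20.6 CPM (log2 0.81, adjusted p = 0.000904). Pgk1 (log2 0.02), Hk1 (-0.02) and the monocarboxylate transporter Slc16a1 (-0.09) did not pass. The hypoxia genes had higher levels in replicate 3 than in replicate 1 of Control, with a median of 0.15, against 0.03 within PCL@PDA and 0.02 within PVDF@PDA. The part of this offset in the result was not tested. With 1 library left out, 14 to 19 hypoxia genes and 9 to 15 glycolytic genes were higher.

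**Figure D3:**
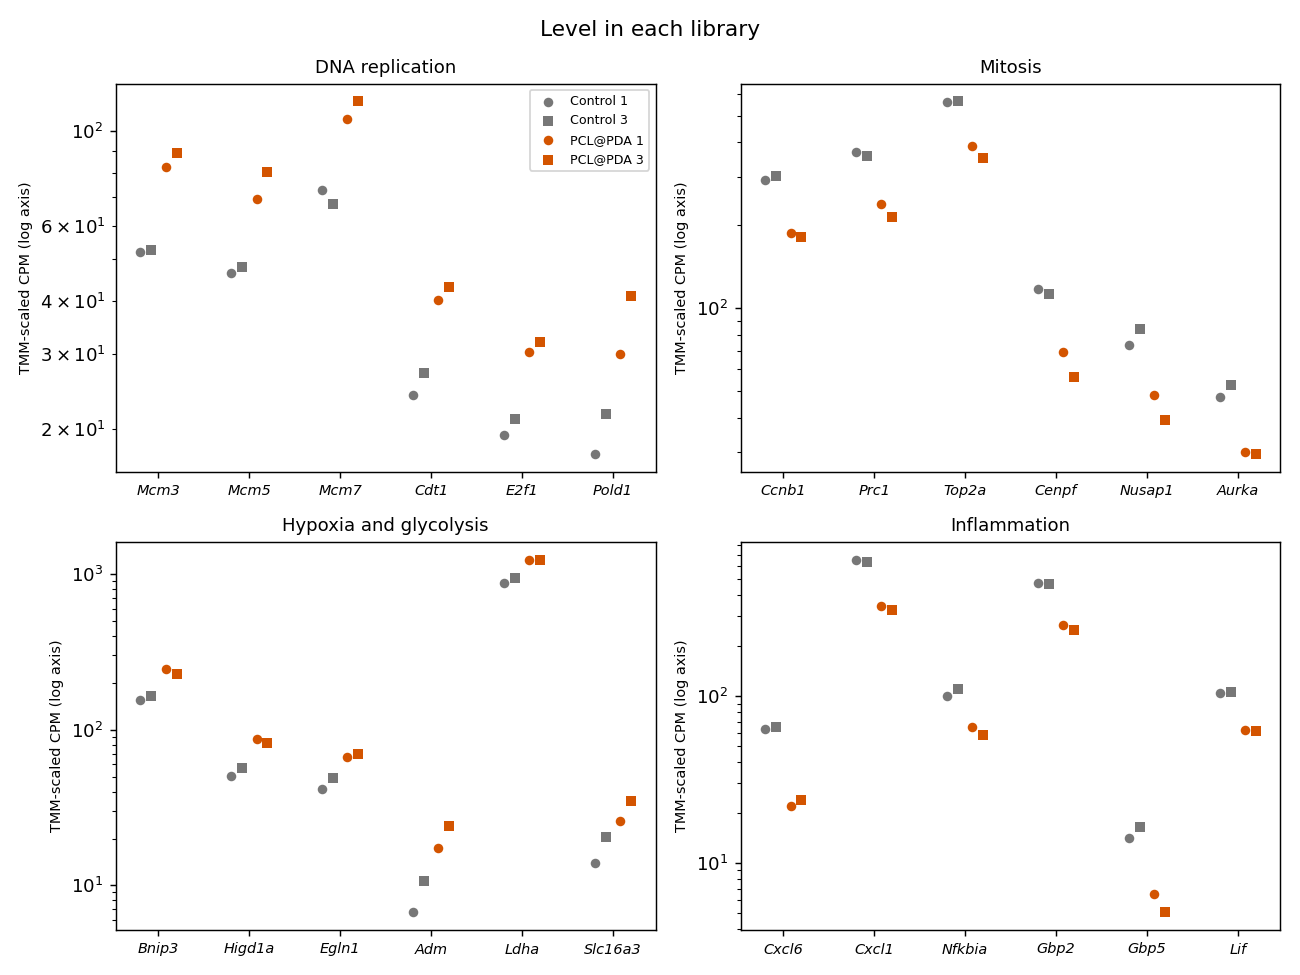
TMM-scaled CPM (log y axis) of 24 genes in the 4 libraries, Control in grey and PCL@PDA in orange, with circles for replicate 1 and squares for replicate 3. In each of the 24 genes, which were picked for display, both PCL@PDA libraries lie on 1 side of both Control libraries, as they do above Control in 28.3% and below it in 27.8% of all genes tested.

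Many chemokine, NF-kB and interferon-induced genes fell with PCL@PDA, and a few rose. Of 21 tested chemokines and cytokines 3 rose and 12 fell, with a median of -0.56. Cxcl1, a neutrophil chemokine (81503), was at 345 and 328 CPM against 657 and 637 (log2 -0.94, SE 0.05, adjusted p = 3.04e-19). Cxcl12, the ligand of Cxcr4 (24772), was at 267 and 261 against 422 and 421 (log2 -0.67, SE 0.05, adjusted p = 4.48e-15), and Lif, a cytokine of nerve injury (60584), at 62.4 and 61.2 against 104 and 106 (log2 -0.76, SE 0.07, adjusted p = 8.12e-13). In these genes the libraries of a group lay close to each other and far from the other group, which picking members by the smallest p favours. The chemokines Cxcl3 (log2 -0.59), Cxcl16 (-0.56), Ccl2 (-0.45), Ccl7 (-0.75) and Cx3cl1 (-0.72) and the alarmins Il33 (-0.44) and Il1a (-1.69) fell too. Il6 did not pass, at 5.69 CPM against 5.34 (log2 0.09, adjusted p = 0.816).

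The macrophage growth factor Csf1 went the other way, at 464 and 487 against 405 and 409 CPM (log2 0.22, SE 0.05, adjusted p = 0.000852). So did the T cell chemokine Cxcl10, at 43.3 and 46.1 against 33 and 32.5 (log2 0.45, SE 0.09, adjusted p = 9.4e-05), which overlaps Art3. Il34, a second ligand of the Csf1 receptor, was at 7.23 and 9.05 against 6.27 and 4.36 (log2 0.62, adjusted p = 0.0271), and its adjusted p was 0.226 without PCL@PDA replicate 3 and 0.322 without Control replicate 3. Tnf, Il1b and Il18 had too few counts to be tested.

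Of 21 tested NF-kB subunits, inhibitors and targets 0 rose and 13 fell, with a median of -0.29. Nfkbia, the inhibitor that NF-kB itself induces (25493), was at 64.8 and 58.5 CPM against 100.4 and 111 (log2 -0.78, SE 0.07, adjusted p = 1.82e-12). The subunit gene Nfkb1 (81736) was at 64.5 and 71.7 against 104 and 111 (log2 -0.66, SE 0.07, adjusted p = 1.13e-10) and the regulator Nfkbiz (304005) at 26.6 and 27.1 against 45.7 and 46.5 (log2 -0.78, SE 0.09, adjusted p = 2.74e-09). The groups were well apart in these 3 genes, which the pick by smallest p favours, and their promoters held the NF-kB form. The subunits Nfkb2 (log2 -0.45) and Relb (-0.57), the feedback gene Tnfaip3 (-0.37), the adhesion molecule Icam1 (-0.37), the mitochondrial superoxide dismutase Sod2 (-0.42) and the inducible nitric oxide synthase Nos2 (-1.04) fell. Rela (log2 -0.21, adjusted p = 0.0578, and 0.0357 with the replicate block), Rel (0.06) and the cyclooxygenase Ptgs2 (0.29) did not pass.

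Of 32 tested interferon-induced genes 2 rose and 14 fell, with a median of -0.31. Isg20, an interferon-stimulated exonuclease that is not on this list, rose by log2 0.87 (adjusted p = 1.35e-10). Gbp2, a GTPase (171164), was at 268 and 248 CPM against 477 and 469 (log2 -0.87, SE 0.05, adjusted p = 3.72e-19), and Parp14, an ADP-ribosyltransferase (303903), at 102 and 102 against 159 and 159 (log2 -0.64, SE 0.06, adjusted p = 4.69e-12). The antiviral Mx2 (286918) was low, at 1.36 and 1.46 against 8.19 and 6.34 (log2 -2.36, SE 0.27, adjusted p = 1.69e-09). In batches 1 and 3 Gbp2 differed by -0.83 and -0.92, Parp14 by -0.63 and -0.64 and Mx2 by -2.54 and -2.08. Others of the same pathway differed little: the signal transducer Stat2 (log2 -0.06, adjusted p = 0.768), Isg15 (0.04, 0.893) and the abundant Rsad2 (270.5 against 286 CPM, log2 -0.08, adjusted p = 0.328) did not pass. The membrane tether Bst2 and Oasl rose (log2 0.27 and 0.24), with adjusted p of 0.268 and 0.358 without PCL@PDA replicate 3 and 0.117 and 0.239 without Control replicate 1. In class I antigen processing 0 of 11 genes rose and 5 fell, against 8.77% and 11.3% of all genes tested. They included the immunoproteasome subunits Psmb8 (log2 -0.53, adjusted p = 1.58e-08) and Psmb10 (-0.88, 0.000243), the peptidase Erap1 (-0.43, 4.51e-08) and Tapbp (-0.40, 6.27e-05). The light chain B2m was level, at 1527 against 1537 CPM (log2 -0.01, adjusted p = 0.927). The constitutive proteasome, by comparison, had 0 of 31 higher (1 with the replicate block) and 4 lower with a median of -0.02. It had 2 higher and 6 lower without PCL@PDA replicate 1, 2 and 2 without PCL@PDA replicate 3 or with library totals alone, 2 lower without Control replicate 1 and 1 lower without Control replicate 3. Without TMM scaling the macrophage list summed to 9.76 to 11.5 CPM over the 4 libraries, and the sums of the groups overlapped. Its members went both ways. Cd14, the most abundant, was at 4.53 and 4.88 CPM with PCL@PDA and 5.78 and 6.02 in Control. Coro1a was at 1.97 and 1.61 against 0.881 and 0.819, and Lyz2 at 0.842 and 0.804 against 0.323 and 0.396. A part of macrophage RNA in these results was not tested.

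Lipid genes moved in different directions, beside 8.77% higher and 11.3% lower among all genes tested. Of 25 genes of PGC-1 coactivators, fatty acid oxidation and lipid droplets, 1 fell (2 with the replicate block) and 5 rose. Besides Cpt1a they were the lipid droplet coat Plin2, at 511 and 501 CPM against 364 and 370.2 (log2 0.46, SE 0.05, adjusted p = 3.97e-10), the lipase inhibitor Angptl4, at 75.6 and 79.4 against 47.8 and 56 (log2 0.58, SE 0.08, adjusted p = 4.11e-08), the thiolase Acaa2 (log2 0.70) and the coactivator Ppargc1a, at 2.86 and 3.36 against 1.02 and 1.03 (log2 1.60, SE 0.32, adjusted p = 0.000163). Each of these was higher in both PCL@PDA libraries, which passing the test favours, and Ppargc1a was low throughout. The fall was that of the fatty acid oxidation enzyme Hadhb (log2 -0.13, adjusted p = 0.0486), and the count of falls changed with the library left out. Of 26 cholesterol genes 1 rose and 8 fell (3 rose with the replicate block, with library totals alone or without PCL@PDA replicate 1, and 0 without Control replicate 1). The cholesterol exporters Abca1 and Abcg1 had the largest falls, at 31.2 and 31.1 against 54.8 and 55.8 CPM (log2 -0.83, SE 0.09, adjusted p = 1.48e-10) and 32.8 and 34.7 against 60.4 and 57.5 (log2 -0.80, SE 0.09, adjusted p = 2.57e-10). The sterol sensor Insig1 (log2 -0.45) and the synthesis enzyme Msmo1 (-0.32) fell too. Of 16 fatty acid synthesis genes 2 rose and 4 fell. The synthase Fasn rose, at 157 and 191 against 131 and 135 (log2 0.39, SE 0.07, adjusted p = 2.5e-05), while Scd2, the desaturase Fads1 (log2 -0.31) and the regulator Srebf1 (-0.56), which overlaps Rai1, fell.

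Of 39 lysosome and autophagy genes 21 rose and 2 fell, with a median of 0.17. The shares of all genes tested were 8.77% and 11.3%. The autophagosome protein Map1lc3b was at 100.1 and 110.2 CPM against 78 and 77.3 (log2 0.44, SE 0.07, adjusted p = 1.3e-06), the cathepsin Ctsb at 988 and 1041 against 826 and 848 (log2 0.28, SE 0.05, adjusted p = 2.1e-05) and the membrane protein Lamp1 at 427 and 425 against 352 and 348 (log2 0.28, SE 0.05, adjusted p = 3.17e-05). The groups did not overlap in these 3 genes, which the pick by smallest p favours, and the differences were small. Ctsd, which overlaps Tnni2, rose by log2 0.28, and the calcium channel of the lysosome Mcoln1 by 0.40. The count of rises was 10 without Control replicate 1 and 14 without PCL@PDA replicate 3, and that of falls 0 without Control replicate 1 and 1 without Control replicate 3. The transcription factor Tfe3 fell by 0.27, with an adjusted p of 0.0541 without Control replicate 1 and 0.0587 without Control replicate 3.

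Of 25 antioxidant, NADPH and iron storage genes of the NRF2 list 7 rose and 1 fell, against 8.77% and 11.3% of all genes. The fall was that of Nfe2l2, the gene of NRF2 itself (log2 -0.19, adjusted p = 0.00466). The ferritin light chain Ftl1 was at 1610 and 1853 CPM against 1082 and 1187 (log2 0.61, SE 0.06, adjusted p = 7.31e-10) and the peroxiredoxin Prdx1 at 690.5 and 664 against 558 and 569 (log2 0.27, SE 0.05, adjusted p = 7.32e-05). The quinone reductase Nqo1 (log2 -0.06, adjusted p = 0.596) and the glutathione synthesis gene Gclc (-0.15, 0.167) did not pass, and the list had 3 higher and 0 lower without Control replicate 1 and 2 lower without PCL@PDA replicate 3. Of 27 chaperones 12 rose and 4 fell. Hsph1, a partner of Hspa8, was at 215 and 202 against 126 and 125 (log2 0.74, SE 0.06, adjusted p = 6.39e-15), while the chaperonin subunits Cct4 (log2 -0.28, adjusted p = 1.89e-05) and Cct5 (-0.23, 0.000721) fell. Without PCL@PDA replicate 1, 8 fell. The count of higher chaperones was 7 without Control replicate 1 and 7 without Control replicate 3.

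In the ATF4 amino acid response 1 of 35 genes rose and 10 fell, while 4 rose and 5 fell with scaling by library totals alone and 2 rose with the replicate block. Without PCL@PDA replicate 1 or 3, 3 and 2 rose. The rise was that of the glutathione-degrading Chac1, at 484 and 547 against 371 and 378 CPM (log2 0.46, SE 0.05, adjusted p = 3.34e-09). The factor Cebpg (log2 -0.31, adjusted p = 1.47e-05) and the tRNA synthetases Tars1 (-0.24, 0.000666) and Sars1 (-0.22, 0.000952) fell, and 3 genes were lower without Control replicate 1 and 4 without Control replicate 3. Of 72 nuclear-encoded respiratory chain genes 11 rose and 2 fell with a median of 0.06, and 5 were higher without Control replicate 1. The lower count was 4 without PCL@PDA replicate 1, 0 if either PCL@PDA replicate 3 or Control replicate 1 was left out, and 1 for each of the remaining libraries. Ndufb10 of complex I had the largest difference, at 65.8 and 68.4 against 45.6 and 44.6 (log2 0.57, SE 0.08, adjusted p = 4.59e-08). Of 77 ribosomal proteins 5 rose and 3 fell (7 fell with the replicate block). The counts were 10 and 12 without PCL@PDA replicate 1, 1 and 0 without Control replicate 1, 1 lower without Control replicate 3, and 10 and 1 with library totals alone. Both lists had medians near that of all genes, of which 8.77% rose and 11.3% fell.

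Genes of nerve injury and Schwann cell state moved singly, beside 8.77% higher and 11.3% lower among all genes tested. Of 13 tested repair and neurotrophic genes 2 rose and 3 fell, with 1 higher without PCL@PDA replicate 1 and 0 without Control replicate 3. Gdnf, a growth factor for motor neurons (25453), was at 63.8 and 69.8 CPM against 92.1 and 88.7 (log2 -0.44, SE 0.07, adjusted p = 4.22e-06). Jun, which drives the repair state (24516), was at 183 and 172 against 155 and 151 (log2 0.22, SE 0.06, adjusted p = 0.00526), and its adjusted p was 0.0854 without Control replicate 3. Bdnf fell by 0.24, with an adjusted p of 0.00861, and 0.0876 without Control replicate 3. Of 17 identity and myelin genes 3 rose and 1 fell (2 fell with the replicate block, without PCL@PDA replicate 1 or without either PVDF@PDA library, and 1 rose without Control replicate 1). Erbb3, the neuregulin receptor, was at 12 and 11.1 against 17.8 and 17.5 (log2 -0.61, SE 0.14, adjusted p = 0.000849). It was lower in both PCL@PDA libraries, which passing the test favours. The myelin gene Pmp22 was at 53.4 and 52.3 against 41.9 and 46 (log2 0.27, SE 0.08, adjusted p = 0.0156), with an adjusted p of 0.248 without Control replicate 1. S100b, near 0 in all libraries, was at 0.0579 and 0.525 against 0.84 and 0.115 CPM and did not pass (log2 -0.70, adjusted p = 0.646).

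Matrix genes were split, beside 8.77% higher and 11.3% lower among all genes tested. Of 31 collagens and matrix proteins 5 rose and 9 fell. The glycoprotein Tnc, tenascin C, had the largest fall, at 805 and 859 CPM against 1398 and 1476 (log2 -0.79, SE 0.05, adjusted p = 2.33e-18), and Col11a1 was at 117 and 111 against 185 and 184 (log2 -0.70, SE 0.06, adjusted p = 1.41e-13). Col5a2, more abundant than Col11a1, fell too, at 343 and 336 against 451 and 453.5 (log2 -0.41, SE 0.05, adjusted p = 1.23e-08). Col1a1, a fibrillar collagen gene of lower level here, was at 21.1 and 20.7 against 13.3 and 12.3 (log2 0.71, SE 0.12, adjusted p = 1.77e-05). It was higher in both PCL@PDA libraries, which passing the test favours, and it overlaps Sgca. The fibroblast markers Pdgfra (28 and 28.8 against 19.6 and 18.6, log2 0.57, SE 0.11, adjusted p = 7.37e-05) and Pdgfrb (6.51 and 7.94 against 3.54 and 4.05, log2 0.93, SE 0.21, adjusted p = 0.000796) rose too. Twist1 of the same marker list fell (log2 -0.26), at 35 and 31 against 37.1 and 39.6 CPM without TMM scaling. The part of these markers in the matrix result was not tested. Of 24 proteases and inhibitors 5 rose and 5 fell. The collagenase Mmp13 was at 216 and 212 against 337 and 347 (log2 -0.68, SE 0.05, adjusted p = 1.92e-14) and the membrane metalloprotease Mmp16 at 103 and 106 against 81.7 and 79 (log2 0.38, SE 0.06, adjusted p = 9.42e-06). The list had 2 higher without PCL@PDA replicate 3 and 2 without Control replicate 1. In Notch signalling 3 of 7 genes rose and 0 fell, the ligand Jag1 most clearly, at 31.6 and 29.5 against 18.5 and 18.2 (log2 0.73, SE 0.10, adjusted p = 2.45e-07).

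Early-response genes and channels were also mixed, beside 8.77% higher and 11.3% lower among all genes tested. Of 22 AP-1 and early-response genes 7 rose and 3 fell. The phosphatase Dusp1 was at 136 and 152 CPM against 100.5 and 97.7 (log2 0.54, SE 0.06, adjusted p = 1.25e-09), and Egr1 at 50.8 and 61.2 against 68.9 and 74.2 (log2 -0.35, SE 0.09, adjusted p = 0.00466). Dusp1 was higher in both PCL@PDA libraries and Egr1 lower, which passing the test favours. The count of rises was 4 without Control replicate 1 and 4 without Control replicate 3. Of 30 mechanosensitive and calcium channels and pumps 6 rose and 2 fell, and 2 rose and 1 fell without Control replicate 1, while 1 fell without Control replicate 3. The calcium release channel Itpr3 rose by log2 0.32 (adjusted p = 0.000137) and the calcium pump Atp2b1 fell by 0.32 (adjusted p = 1.13e-05). The pressure-gated channel Piezo1, which overlaps Ctu2, was at 154 and 181 against 149 and 144 CPM (log2 0.19, SE 0.06, adjusted p = 0.0209). It was lifted by 1 library: without PCL@PDA replicate 3 its difference was 0.07 and its adjusted p 0.542, and it did not pass without Control replicate 1 (0.0697) or Control replicate 3 (0.148).

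The differences from Control were then taken within each batch, as PCL@PDA replicate 1 against Control replicate 1 and likewise for replicate 3. All 2616 genes that passed had the same sign in both batches, which the test across these same libraries favours. Of them 1670 had the larger difference in batch 3 and 946 in batch 1, and the median size was 0.30 and 0.35 log2 in batches 1 and 3. In 462 genes the smaller difference was under 50% of the larger. Over 9883 genes with a mean of at least 5 CPM the differences of the batches correlated across genes at r = 0.68 and rho = 0.64. Genes are not independent replicates, and the libraries of both batches were scaled together. Past 2-fold were 24 of these genes in batch 1, 33 in batch 3 and 11 in both with the same sign.

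**Figure D4:**
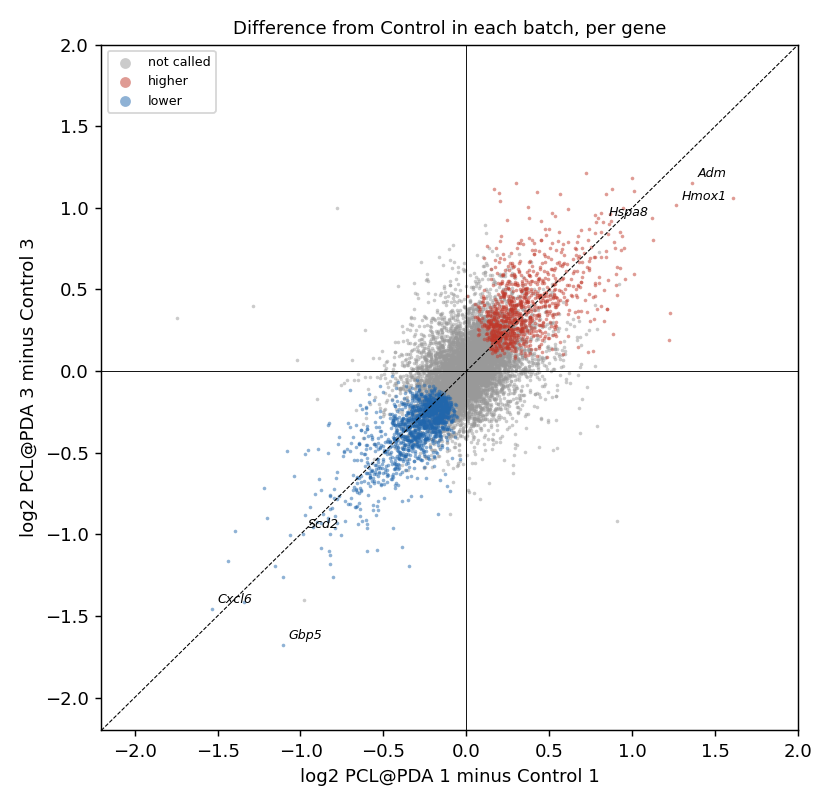
Log2 difference from Control in batch 1 (x axis) against batch 3 (y axis) for 9883 genes with a mean of at least 5 CPM; red points rose, blue points fell, grey points did not pass, and the dashed line marks equal differences. Called genes lie in the lower left and upper right of the plot, and Gbp5 lies below the line with a larger fall in batch 3 (-1.68) than in batch 1 (-1.11).

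PCL@PDA replicate 3 departed from replicate 1 more than the libraries of the other groups did from each other, by a small amount spread over many genes. The typical gene with at least 5 CPM in a pair differed by 0.105 log2 between the PCL@PDA libraries (median size, 9950 genes), against 0.075 in Control (9832) and 0.073 in PVDF@PDA (9927). The SD of the log2 ratio was 0.178, 0.147 and 0.146 in the same order. Past 1.5-fold were 59 genes with PCL@PDA (0.593%), 43 higher and 16 lower in replicate 3, against 43 in Control (0.437%) and 43 in PVDF@PDA (0.433%). Past 2-fold were 4 genes with PCL@PDA, 3 higher and 1 lower. With 1 library on each side these ratios have no test.

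The excess was larger in well-counted genes. From 5 to 20 CPM the median size was 0.157 with PCL@PDA, 0.145 in Control and 0.134 in PVDF@PDA over 2699 genes. At 100 CPM or more it was 0.082, 0.047 and 0.040 over 2496 genes. The direction followed the level too: in replicate 3 genes of 5 to 20 CPM were higher by a median of 0.044, and genes at 100 CPM or more lower by 0.049. Control showed the same order with smaller values (0.035 and -0.019), and PVDF@PDA lay at 0.006 and -0.006. Across 9863 genes the PCL@PDA ratio fell with gene span (rho = -0.173), against -0.122 in Control and -0.0139 in PVDF@PDA. Its correlation with the GC content of 8243 promoters was 0.0365. The PCL@PDA ratio correlated across 9883 genes with the Control ratio at r = 0.19 and with that of PVDF@PDA at r = 0.02. These points share the scaling of their library and their level.

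**Figure D5:**
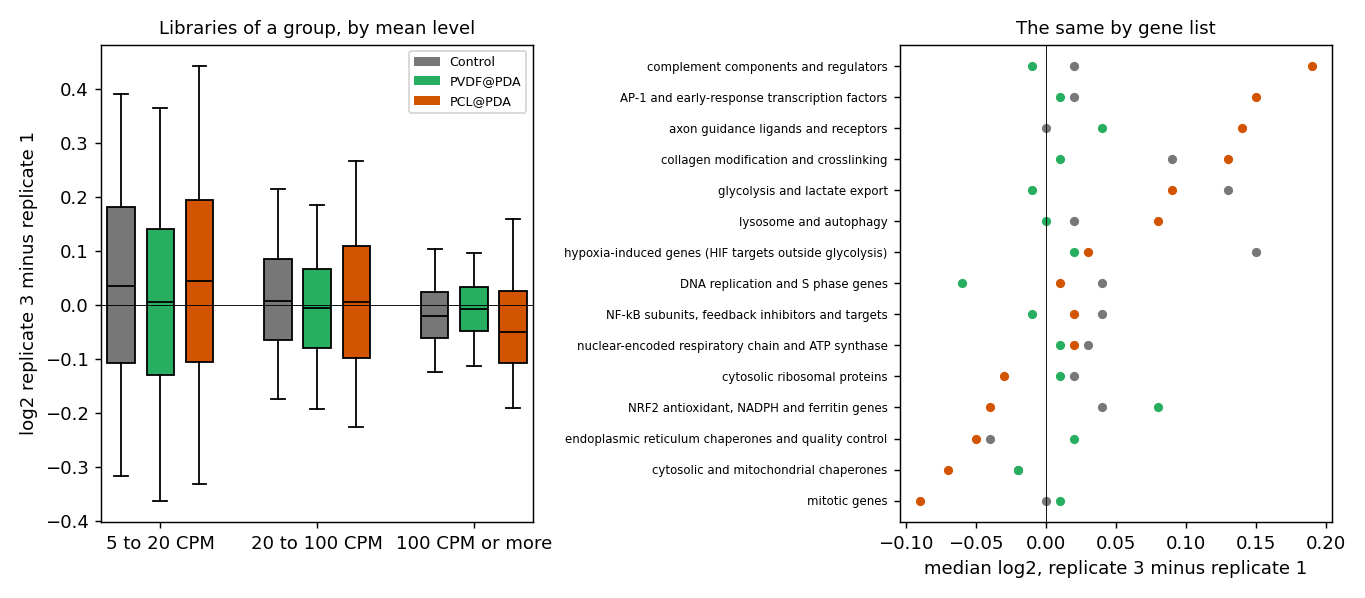
Left: log2 ratio of replicate 3 to replicate 1 (y axis) in Control, PVDF@PDA and PCL@PDA by level class (x axis), with boxes from the 25th to the 75th percentile, a line at the median and whiskers from the 5th to the 95th percentile. Right: median of the same ratio over the tested members of 15 gene lists; PCL@PDA runs from -0.09 for mitotic genes to 0.19 for complement.

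The genes with the largest ratio of replicate 3 to replicate 1 were taken, as the 10 highest and the 10 lowest, among those with a mean of at least 10 CPM over the PCL@PDA pair and ratios below 0.5 log2 in size in the Control and PVDF@PDA pairs. Some genes, such as Mfsd3, Ssbp4 and Rhbdf1, reached 10 CPM only through replicate 3 of PCL@PDA. A ratio does not show which library of the pair departs. RT1-CE15, a class I antigen gene of a family with near-identical members, was at 8.39 and 16.5 CPM with PCL@PDA, 7.83 and 10.1 in Control and 8.84 and 9.05 with PVDF@PDA (log2 ratio 0.97). The sulfatase Arse was at 8.13 and 13.8, 10.7 and 13.4 and 11.4 and 12.7 in the same order (0.76), and Ssbp4 at 9.09 and 14.4, 7.89 and 8.26 and 8.56 and 7.8 (0.66). PCL@PDA replicate 3 was the highest of the 6 libraries in RT1-CE15 and Ssbp4 by a wide gap. In Arse it was close to replicate 3 of Control and PVDF@PDA, and PCL@PDA replicate 1 was the lowest library. The others were the transporters Mfsd3 (0.74) and Spns1 (0.58), the Rab regulator Tbc1d10a (0.66), Ankrd13b (0.61), the deacetylase Hdac10 (0.60), the chondroitin enzyme Chpf2 (0.58) and the rhomboid-like Rhbdf1 (0.58). Mfsd3 and Chpf2 overlap other counted genes, and Repin1 was next in order at 0.57.

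The lowest ratio was that of Ogfrl1, at 13.4 and 7.94 CPM with PCL@PDA, 11.3 and 10.2 in Control and 12.3 and 12.3 with PVDF@PDA (-0.76). Ccdc174 followed, at 24.8 and 16.6, 26.9 and 27.1 and 24.8 and 23.6 (-0.57). Replicate 3 of PCL@PDA was the lowest of the 6 libraries in both. In Tent5a, at 15.2 and 10.9 CPM, replicate 1 was the highest library and replicate 3 lay among those of the other groups. The remaining genes ran from Blzf1 (-0.54) to Dnajc18 (-0.45), with Coq7 next in order. Of the 20 genes 4 passed against Control: Ssbp4 (log2 0.54) and Rhbdf1 (0.63) rose, and Ccdc174 (-0.38) and Dnajc18 (-0.53) fell. Their differences were 0.20, 0.41, -0.12 and -0.33 in batch 1 and 0.80, 0.79, -0.70 and -0.77 in batch 3. Without PCL@PDA replicate 3 their adjusted p was 0.685, 0.408, 0.557 and 0.105, a loss that choosing genes by the ratio of the PCL@PDA libraries favours. It was 0.113, 0.113 and 0.0659 for Ssbp4, Rhbdf1 and Ccdc174 without Control replicate 1, and 0.0565 and 0.0627 for Ssbp4 and Ccdc174 without Control replicate 3.

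By list, complement genes had the highest median ratio within PCL@PDA (0.19, against 0.02 in Control and -0.01 in PVDF@PDA). Only 10 of them were tested, and their summed CPM was 648.6 and 660.7 in PCL@PDA replicates 1 and 3. Early-response genes were at 0.15 (0.02 and 0.01), guidance genes at 0.14 (0.00 and 0.04) and mitotic genes at -0.09 (0.00 and 0.01). The intermediate filament and neuronal cytoskeleton list, with 10 tested genes, was also at -0.09 (0.04 and 0.01). Of 22 early-response genes 18 were higher in replicate 3, of 10 complement genes 7 and of 32 mitotic genes 8. In Control these counts were 12, 5 and 17. The median ratio within PCL@PDA was -0.006 over genes of at least 5 CPM, 0.044 over genes of 5 to 20 CPM and -0.049 over genes at 100 CPM or more. The difference from Control was computed with each PCL@PDA library alone. With replicate 3 alone 3173 genes passed and with replicate 1 alone 1964, and 1468 passed in both, which is 46.3% of the former and 74.7% of the latter. In these fits the lone library is assumed to vary like the other groups.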

How the data were processed

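Total RNA from RSC96 cells was purified on columns with DNase treatment and sequenced, per the labels. The aligner, read counter, annotation and counting strand are not stated in any label or header. The submitters' processing notes list DESeq2 1.4.5 and the assembly mRatBN7.2 and give neither a role. The authors deposited raw read counts per gene for all 6 libraries in 1 table, and FPKM for each library in a table of its own. The FPKM were used for alternatives only.

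The counts went into a robust quasi-likelihood fit (edgeR 4.0.16 in R 4.3.3) of 3 group means over 6 libraries, after filterByExpr, which removed 3831 genes, and TMM scaling. The fit had 3 residual degrees of freedom, a median of 50.3 prior degrees of freedom and a biological coefficient of variation of 6.47%. Tests were two-sided, and adjusted p-values come from this edgeR test unless another tool is named. Ratios within a pair used log2 CPM with a prior count of 2. The floor of 3 counts covers counting error only. The code was tested on simulated data.

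Named genes were the 12 largest rises and falls among genes that passed with at least 10 CPM and the same sign in both batches, leaving out locus identifiers. To these were added up to 4 passing members of a list in each direction, by smallest p. Vegfa, Slc2a1, Bnip3, Ca9, S100b, Jun, Hmox1 and Piezo1 were fixed, and 10 genes each way were taken for the ratio of replicate 3 to 1. Members that fill a role were added as well. The members and the 36 gene and 5 marker lists (1059 genes, 1036 of them in the table, 8 under another symbol) were chosen with earlier results of these data known. Lists are described by counts and medians, without a set test. Mitochondrially encoded genes were not analysed here, and some genes that meet the rule are not reported here.

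The labels put same-numbered libraries in the same batch, so the numbers pair the samples. Across 9883 genes the ratios of replicate 3 to 1 correlated at r = 0.19 between PCL@PDA and Control, 0.02 between PCL@PDA and PVDF@PDA and 0.05 between Control and PVDF@PDA, so the pairing rests on the labels. Libraries of a pair differed by more than sampling noise (chi-square per degree of freedom 9.04 for PCL@PDA, 5.05 for Control, 4.39 for PVDF@PDA). Alternatives were other scalings and filters, the batch as a replicate block, 4 libraries alone, a non-robust fit, DESeq2 1.42.0, limma 3.58.1 on log2(FPKM + 1) and log2(FPKM + 0.1), and each library left out.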

Additional observations from a re-analysis of the deposited data

Results flagged for a closer look

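Mmp13, a collagenase (gene ID 171052), differed between the materials when they were compared directly. The direct edgeR test of PVDF@PDA against PCL@PDA gave a log2 difference of 0.294 (adjusted p = 0.00714). The log2 differences from Control, -0.68 with PCL@PDA and -0.39 with PVDF@PDA, share the Control libraries. Mmp13 stood at 216 and 212 CPM with PCL@PDA and 251 and 272.5 with PVDF@PDA. Both materials were below both Control libraries, at 337 and 347 CPM.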

How the results depend on the processing

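With the batch as a replicate block edgeR called 3051 genes, 2615 of them shared with the 2616 called without it, and the block ended no call among the genes followed here. It added Ca9, Rela, RT1-CE15 and Emx2, among others. That fit left 2 residual degrees of freedom. Fewer genes passed with limma on log2(FPKM + 1), 1366, and on log2(FPKM + 0.1), 1447, and the cause was not tested. With 1 library left out the count ran from 1346 to 3173, with fewer samples in the fit. The other settings, namely RLE size factors, library totals alone, no filter, a filter of 1 CPM in 2 libraries, 4 libraries alone, DESeq2 and the non-robust fit, gave 2226 to 2677. The number of genes past 1.5-fold between the PCL@PDA libraries was 59 at 5 CPM, 389 at 1 CPM or more, 2 at 20 CPM or more and 21 on log2(FPKM + 1), where the pseudocount shrinks low genes. Of 253 genes that passed and were followed under the alternatives, 162 kept their call under every alternative that gave a value and 91 lost it in at least 1, most often with limma (69 and 63), without Control replicate 1 (64), PCL@PDA replicate 3 (39) or Control replicate 3 (38). None of the 253 differences reversed. Of 1152 list counts under the alternatives 957 were within 1.5 times the reported count. Depth limits genes near 0.0848 to 0.0893 CPM, and 2 libraries a group limit all error estimates.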
